A study of Mus musculus with 6 samples.

Results

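Histone genes were selected by symbol from the deposited table: every row named Hist1h, Hist2h, Hist3h or Hist4h, and every row whose symbol begins with H2af, H3f3 or H1f. The rule found 80 of the 18312 gene rows. Of these, 66 carry the Hist prefix and are called replication-dependent below, and the remaining 14 are called replacement variants. The rule uses no measured value, though it was chosen with earlier results of these data known.

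The study immunoprecipitated Brf1 and Brf2, zinc finger proteins encoded by Zfp36l1 and Zfp36l2, from mouse embryonic stem cells to find their mRNA partners. The labels describe 6 libraries from wild-type E14 cells (genetic background 129/Ola), kept with 15% FBS and 1000 U/ml LIF, in 3 groups of 2: RNA recovered with an antibody against both proteins, RNA recovered with non-specific rabbit IgG, and total RNA. All groups share the line and the cytoplasmic extract, and nothing in the labels says whether the libraries of a group came from separate cultures. The table holds 1 profile of 22625281 counts, no column of it names a library, and it was assigned to no group.

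A level here is therefore neither a measure of binding nor, with certainty, of expression, because the profile may hold precipitated RNA. No comparison between groups was made and no p-value is given. Each value is the authors' single value in FPKM, the count scaled to the total and to the kilobases of an effective length that the authors computed, and the range after it is the authors' lower and upper bound. These bounds cover counting error only, as do the other intervals and limits given here. Fewer cells with a transcript and less of it per cell cannot be told apart in such a profile. Of the embryonic stem cell markers listed, 6 of 6 had at least 40.6 FPKM, among them Pou5f1 at 605 FPKM. Of the fibroblast markers 1 of 6 reached 1 FPKM (Thy1 at 3.74 FPKM), and of the 3 measured primitive endoderm markers none did.

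Replication-dependent histone genes supply the bulk histones of S phase. They lie in clusters, mostly lack introns, and their mRNAs usually end in a conserved stem-loop in place of a poly(A) tail. The stem-loop-binding protein (SLBP) holds that structure, and the U7 small nuclear ribonucleoprotein directs the cut behind it. Replacement variants are encoded by dispersed genes, mostly with introns and polyadenylated mRNAs, and are made and deposited throughout the cell cycle. H2afx is known to give both kinds of mRNA. Several Hist genes can also yield polyadenylated mRNAs with a longer 3′ end.

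The stem-loops below show the 3′ end usual for replication-dependent histone mRNAs. They are those of the member with the highest FPKM in each replication-dependent type for which a stem-loop was found. H2afx is added as the only replacement variant in which a stem-loop was found. Capitals mark the stem-loop, a stem of 6 base pairs around a loop of 4 bases, and small letters mark 5 flanking bases on each side. They were read from GENCODE M21 transcripts, strand 5′ to 3′, and the positions are on GRCm38, not on the mm9 build named for the table. All lie in the 3′ untranslated region.
Hist1h1c, chr13:23739512-23739527, plus strand: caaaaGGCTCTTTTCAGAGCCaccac
Hist1h2ao, chr13:21810898-21810913, plus strand: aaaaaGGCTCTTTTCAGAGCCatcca
Hist1h2bg, chr13:23571843-23571858, plus strand: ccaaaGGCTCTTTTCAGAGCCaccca
Hist1h3e, chr13:23561903-23561918, minus strand: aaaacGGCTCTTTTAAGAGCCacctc
Hist4h4, chr6:136803998-136804013, minus strand: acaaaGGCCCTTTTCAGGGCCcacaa
H2afx, chr9:44335240-44335255, plus strand: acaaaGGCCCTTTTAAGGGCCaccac

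A stem-loop after the stop codon was found in 46 of the 66 replication-dependent genes, 21 to 58 bases (median 31) behind the stop codon. Of the 20 without a match, 17 had fewer than 50 annotated bases after the stop codon, so the window where it would lie was mostly not covered. Only the transcript's own strand was searched. Among the 13 replacement variants with a coding transcript, H2afx was the single one with a match. H2afy3 has no coding transcript and was not searched. Over all 21677 GENCODE genes with a coding transcript, 62 (0.286%) held the same pattern. The form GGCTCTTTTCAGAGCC was shared by 26 of the 46 genes and occurred in H1, H2A, H2B and H3 genes. H4 genes held other stems, most often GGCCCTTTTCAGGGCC, found in 7 of them.

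In share reaching 1 FPKM and in median, the replication-dependent genes lay below the figures for all gene rows and the replacement variants above them. At least 1 FPKM was reached by 27 of 66 replication-dependent genes and by 11 of 14 replacement variants, where 56.0% of all gene rows reached it. The median was 0.750 FPKM for replication-dependent genes and 17.7 FPKM for replacement variants, beside 1.94 FPKM over all gene rows. Models of replication-dependent genes are short, with a median of 439.5 nt. Of all 502 rows with models up to 600 nt, 39.0% reached 1 FPKM, with a median of 0.273 FPKM. By these measures the 66 replication-dependent genes, 40.9% of which reached 1 FPKM, were not low beside rows with short models. In share this rested on the 18 H2A genes, all of which reached 1 FPKM. Of the 48 others 18.75% did, a smaller share than 39.0%, though their median of 0.463 FPKM was above 0.273 FPKM. The sets overlap, because replication-dependent genes with models up to 600 nt are among the 502 rows. The rest have longer models, up to 2977 nt. At 5 FPKM the replication-dependent genes had the smaller share, 11 of 66 against 159 of 502.

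In counts, the 66 replication-dependent genes together held 2641, or 0.0117% of the profile (Wilson 95% interval 0.0112 to 0.0121). The 14 replacement variants held 71515 counts, or 0.316% (0.314 to 0.318). The ratio of summed counts, replication-dependent over replacement, was 0.0369, and that of summed FPKM was 0.0873 (174.6 against 2001 FPKM). The ranges of the classes overlapped. Replication-dependent genes ran up to 26.6 FPKM, and 7 of them lay at or above the 9.20 FPKM of H2afj, but none reached the 41.6 FPKM of H2afv. The labels name a TruSeq RNA kit and do not say whether polyadenylated RNA was selected. The part of such a selection, or of the placing of reads shared between genes, in the difference between the classes was not tested.

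**Figure D1:**
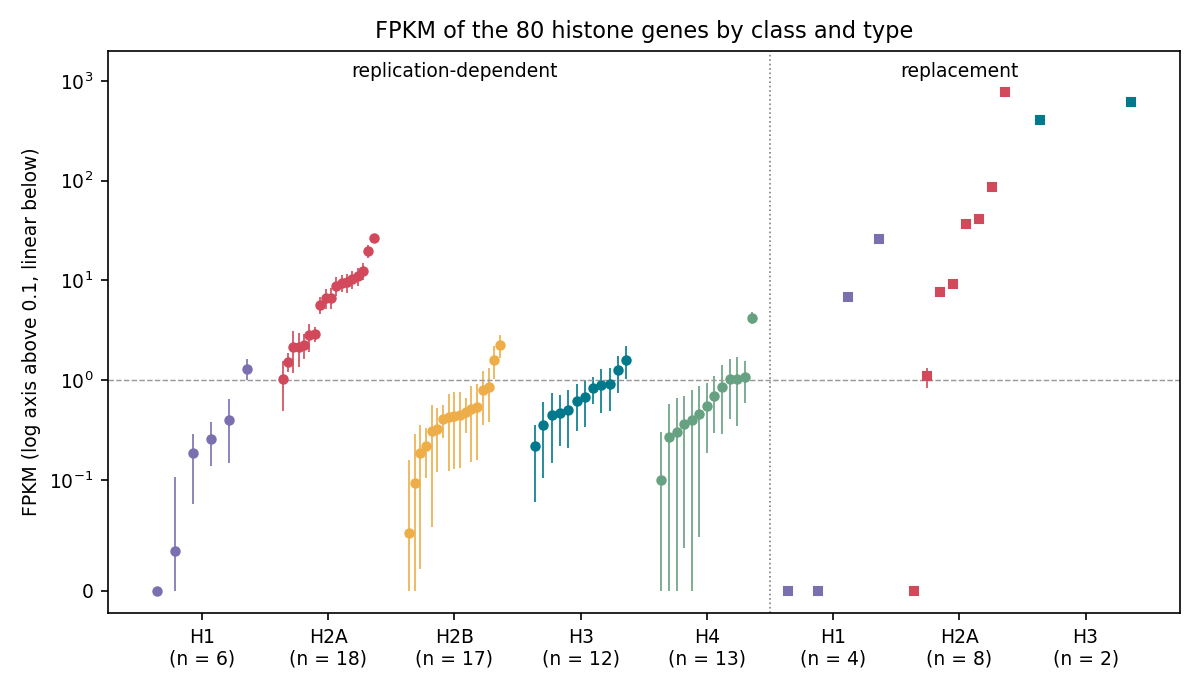
FPKM of each histone gene (log axis above 0.1, linear below), with replication-dependent genes left and replacement variants right of the dotted line, split by histone type. Points are genes, bars are the authors' bounds and the dashed line is 1 FPKM; all 18 H2A genes of the replication-dependent class lie above it, as do 9 of the other 48.

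Within the replication-dependent class, H2A genes, which encode the partner of H2B in the nucleosome core, stood above the others. All 18 reached 1 FPKM, ranging from 1.03 to 26.6 FPKM around a median of 6.74 FPKM. They held 1725 of the 2641 counts of the class, or 65.3%. Of the 48 genes for the other types, 9 reached 1 FPKM and their median was 0.463 FPKM. The count of 27 thus fell to 9 without the H2A genes. In GENCODE M21, exons of all 18 H2A genes overlap those of another gene, as do exons of few of the other 48. Strand handling is not stated, so reads of overlapping genes cannot be told apart. The part of such reads in the H2A counts was not tested.

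The H2A gene with the highest level was Hist1h2ao at 26.6 FPKM (23.7 to 29.5, 343 counts). Hist1h2ap followed at 19.7 FPKM (16.8 to 22.6, 181 counts), and Hist1h2af had 12.5 FPKM (10.2 to 14.9, 112 counts). The bounds of Hist1h2ao and Hist1h2ap do not overlap, nor do those of Hist1h2ap and Hist1h2af. These bounds do not settle the order, because how reads shared between genes were placed is not recorded. The coding sequences of Hist1h2ao and Hist1h2ap are identical in GENCODE. Below Hist1h2af, 8 further H2A genes of the Hist1 cluster ran from 11.1 FPKM for Hist1h2ad to 5.69 FPKM for Hist1h2ae, and the bounds of neighbours in that order overlap. The remaining H2A genes were lower, with Hist3h2a at 2.92 FPKM and the Hist2 genes at 2.13 to 2.82 FPKM. Also of the Hist1 cluster, Hist1h2ac had 1.54 FPKM and the testis gene Hist1h2aa 1.03 FPKM (15 counts).

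H2B genes had a median of 0.442 FPKM, and 2 of 17 reached 1 FPKM. The highest were Hist1h2bc at 2.24 FPKM (1.66 to 2.81, 61 counts), Hist1h2bg at 1.61 FPKM (1.03 to 2.19, 31 counts) and Hist1h2bh at 0.853 FPKM (0.380 to 1.33, 13 counts). Most H2B genes rested on few counts: 9 of the 17 had under 10. The bounds of Hist1h2bc and Hist1h2bg overlap, as do those of Hist1h2bg and Hist1h2bh.

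H3 genes had a median of 0.644 FPKM, and 2 of 12 reached 1 FPKM. Hist1h3e had 1.61 FPKM (1.03 to 2.19, 31 counts), Hist1h3c 1.25 FPKM (0.752 to 1.76, 25 counts) and Hist1h3i 0.918 FPKM (0.497 to 1.34, 19 counts). These bounds overlap, so the 3 leading H3 genes are not ordered. The lowest H3 gene was Hist2h3c2 at 0.219 FPKM (0.0804 to 0.357).

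H4 genes had a median of 0.558 FPKM, and 4 of 13 reached 1 FPKM. Hist4h4, the H4 gene on chromosome 6 apart from the clusters, had 4.23 FPKM (3.68 to 4.78, 235 counts), which was 72.1% of all H4 counts. This share is not scaled to length: its model has 2879 nt, where the median H4 model has 312 nt. In FPKM, the 13 H4 genes summed to 11.4. The next were Hist1h4i at 1.08 FPKM (0.597 to 1.56, 20 counts) and Hist1h4n at 1.04 FPKM (0.345 to 1.73, 9 counts). The bounds of Hist4h4 lie above those of every other H4 gene, and those of Hist1h4i and Hist1h4n overlap.

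Linker histone H1 genes had a median of 0.223 FPKM. Hist1h1c had 1.31 FPKM (1.00 to 1.61, 73 counts), the only 1 of 6 above 1 FPKM, and held 64.0% of H1 counts. Hist1h1b had 0.400 FPKM (0.147 to 0.652, 10 counts) and Hist1h1d 0.260 FPKM (0.138 to 0.383, 18 counts). Hist1h1t, the testis linker histone, had no counts, which allows up to 0.127 FPKM (3 counts). It was the single replication-dependent gene at 0.

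H2A and H2B genes often lie head to head and share a promoter region. In GENCODE M21, 11 such divergent pairs were found among the members, with starts 176 to 306 bases apart. The H2A gene was the higher in 10 of 11 pairs, and in those 10 the authors' bounds did not overlap. In the pair with the highest ratio, Hist1h2ao had 26.6 FPKM (343 counts, model of 514 nt). Its partner Hist1h2bq had 0.477 FPKM (28 counts, model of 2121 nt), a 55.9-fold difference in FPKM. In the exception, Hist1h2ac had 1.54 FPKM and Hist1h2bc 2.24 FPKM, with overlapping bounds. There the H2A gene had more counts, 81 on a model of 2493 nt against 61 on 728 nt. Hist2h2ac and Hist2h2be had 29 and 30 counts on models of 390 and 2618 nt, so that H2A gene was higher only per length. The part of model extent in these ratios was not tested. The median ratio over the pairs, H2A over H2B, was 13.1, and 10.2 when FPKM was recomputed on the model length. The pairs are not replicates, since members share sequence. Exons of every H2A gene in the pairs, and of none of the H2B genes, overlap those of another gene.

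**Figure D2:**
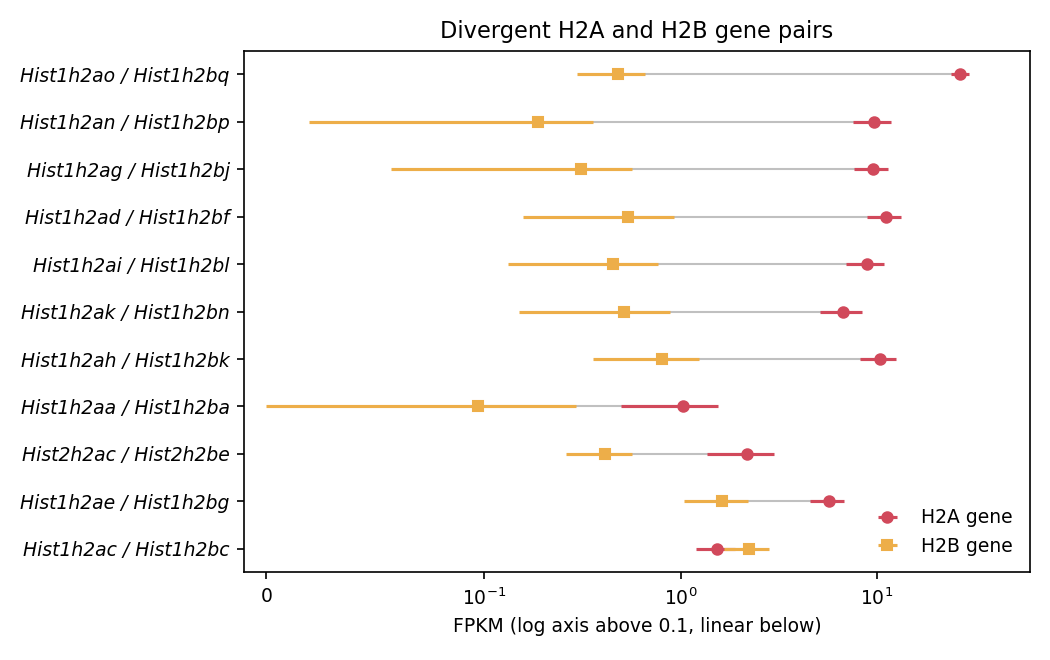
FPKM (log axis above 0.1, linear below) of the H2A gene (circles) and the H2B gene (squares) of each of 11 divergent pairs, with the authors' bounds as bars. The H2A gene lies to the right in 10 pairs; Hist1h2ac and Hist1h2bc are the exception.

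Values of single H2A, H2B, H3 and H4 genes are uncertain because their coding sequences are nearly alike. More than 50% of the 50-base words of the coding sequence occurred in another member for 49 of 66 replication-dependent genes, and all of them for 9. The median share was 83.3% for H2A, 74.1% for H2B, 79.0% for H3 and 70.3% for H4 genes, against 10.9% for H1 genes. Hist1h2ap shows the limit of the counts. Its model is the coding sequence alone, which is identical in GENCODE to that of Hist1h2ao, and yet its 181 counts are all listed as unique. Total, unique and estimated counts were equal in all 18312 rows, so the table does not record how shared reads were placed. Among replacement variants the median share was 0% for H1, H2A and H3 genes. The placing of shared reads therefore bears on the class medians, sums and ratios too. Its part in the difference between the classes was not tested. Hist4h4, by contrast, shared no 50-base word with another member.

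H2A genes also shared sequence with H2afx, the variant that marks sites of DNA damage when phosphorylated and a far more abundant row, at 2691 counts per kilobase of model. Of the 18 H2A genes, 16 held a 50-base word of an H2afx transcript in their coding sequence, and none of the 48 others held even a 36-base word. The 13 H2A genes with 19.8 to 24.3% of their words in H2afx had a median of 213.7 counts per kilobase of model (32.5 to 667). The 5 with 0 to 9.30% had a median of 73.9 (38.5 to 175.6). The part of H2afx reads in the H2A counts was not tested.

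Gene models of the Hist genes differ in how far they run past the coding sequence, which bears on what could be counted. For 32 of 66 the model was the coding sequence within 10 bases, so reads from the untranslated ends, stem-loop included, had no place in it. For 22 the model ran 11 to 500 bases beyond the coding sequence, and for 12 more than 500 bases. These 12 include Hist4h4, with a model of 2879 nt, Hist3h2a with 1990 nt, Hist1h2ac with 2493 nt and Hist1h1c with 1561 nt. All 12 had at least 10 counts, as did 44 of the 66 and 70.6% of all gene rows, and they held 707 counts, or 26.8% of the class.

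Per length, the long models were not higher. The median was 0.471 FPKM for the 12 long models, 0.687 FPKM for the 22 intermediate ones and 0.858 FPKM for the 32 coding-only ones. Outside H2A, the medians were 0.439, 0.558 and 0.451 FPKM in the same order, from 10, 17 and 21 genes. On the model length, these medians outside H2A were 0.545, 0.993 and 0.928 FPKM, so the long models lay further below the others. The leading genes of 2 of the 5 types have a long model: Hist4h4 for H4 and Hist1h1c for H1. The leading genes of the other types do not, with 121 bases beyond the coding sequence for Hist1h2ao, 347 for Hist1h2bc and 0 for Hist1h3e. In Hist4h4, Hist1h1c and Hist3h2a, the stem-loop is followed by 840 or more annotated bases. Each of these 3 has a poly(A) signal (AATAAA or ATTAAA) in the last 50 bases of its GENCODE transcript. Of the 12 genes with long models, Hist1h2ac, Hist1h1d, Hist1h1e, Hist1h3f and Hist2h3c2 have none there, and the others have one. In all, 16 of the 66 genes have such a signal, as do 9 of the 13 replacement variants with a coding transcript. The share over all genes was not counted. Where along these models the reads fell is not recorded in the table.

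**Figure D3:**
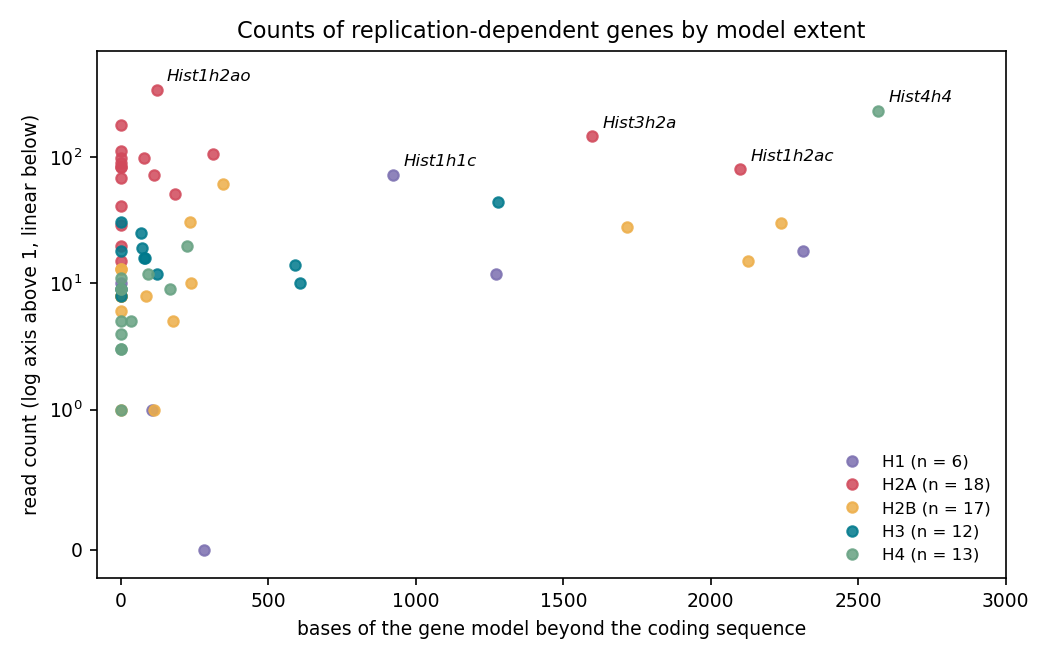
Read count (log axis above 1, linear below) of each replication-dependent gene against the bases of its model beyond the coding sequence. Colours give the histone type; genes at the left edge have models without untranslated regions, the long models of Hist4h4, Hist3h2a, Hist1h2ac and Hist1h1c hold 235, 147, 81 and 73 counts, and Hist1h2ao has the highest count, 343.

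Among the replacement variants, H2afz led. It encodes H2A.Z, an H2A variant found around transcription start sites, and had 765 FPKM (757 to 774, 30120 counts), rank 65 among all gene rows. The other H2A.Z gene, H2afv, had 41.6 FPKM (39.5 to 43.7, 1595 counts). No 50-base word of their coding sequences was shared between them or with any other member. H2afz does share words with 4 processed pseudogenes in GENCODE, which bear on it only if their reads were counted there.

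H3.3, the H3 variant deposited outside replication, is encoded by a pair of genes. H3f3a had 614 FPKM (603 to 624, 13930 counts), rank 92, and H3f3b had 406 FPKM (399 to 412, 16339 counts), rank 142. H3f3b had more counts on a longer model, and per length H3f3a was 1.51 times as high. The bounds are far apart, but 34 processed pseudogenes share a 50-base word with the coding sequence of H3f3a and 2 with that of H3f3b, so the order between them is uncertain. The 12 replication-dependent H3 genes together summed to 8.78 FPKM, against 1019 FPKM for both H3.3 genes. No 50-base word of the H3.3 coding sequences occurred in another member.

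H2afx had 86.8 FPKM (83.9 to 89.6, 3657 counts). It followed H2afz, H3f3a and H3f3b in order and had the highest level of all members with a stem-loop. H2afy encodes macroH2A1, a variant with a large C-terminal domain that is common in silent chromatin, and had 36.7 FPKM (35.2 to 38.2, 2330 counts). Its relative H2afy2 had 7.66 FPKM (7.06 to 8.26, 655 counts), and H2afy3 had 1.09 FPKM (0.846 to 1.34, 78 counts). H2afy3 has no coding transcript in GENCODE M21 and overlaps an exon of Pvt1, so its counts are uncertain. H2afj had 9.20 FPKM (8.49 to 9.90, 682 counts), with bounds that do not overlap those of H2afy2.

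The linker variant H1f0, known to accumulate in cells that leave the cell cycle, had 26.3 FPKM (25.0 to 27.5, 1802 counts). H1fx had 6.86 FPKM (6.10 to 7.62, 327 counts), and its bounds overlap those of H2afy2. The 6 replication-dependent H1 genes summed to 2.19 FPKM, with 114 counts in all. H1fnt of the testis, H1foo of the oocyte and H2afb1 had no counts, which allows up to 0.0490, 0.0982 and 0.230 FPKM (3 counts each). Of the 4 measured oocyte markers, Gdf9 and Bmp15 were also at 0 counts, Zp3 had 1.54 FPKM (66 counts) and Nlrp5 0.0416 FPKM (5 counts). Of the 5 male germ cell markers, Sycp3 had 37.0 FPKM and Ddx4 9.40 FPKM, and Prm1, Tnp1 and Acrv1 were at 0 counts. H2afz, H3f3a and H3f3b together held 84.4% of the counts of the 14 replacement variants.

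**Figure D4:**
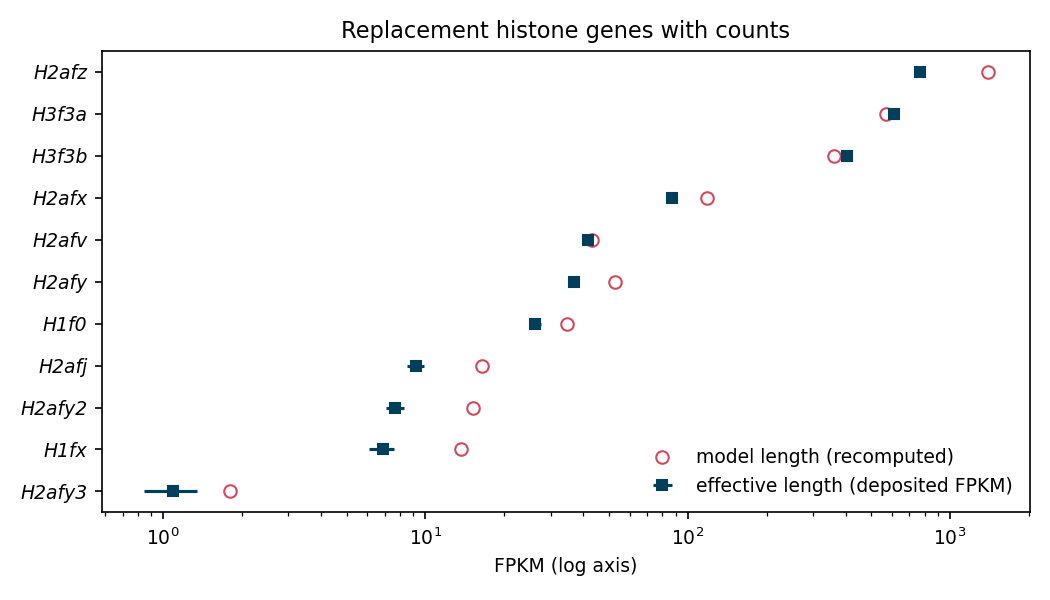
FPKM (log axis) of the 11 replacement variants with counts, as deposited on the effective length (squares, with the authors' bounds as bars) and recomputed on the model length (circles). H2afz, H3f3a and H3f3b lead on both; H2afv lies above H2afy on the effective length and below it on the model length.

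The effective length decided some of these orders. Its median ratio to the model length was 1.53 for the replication-dependent genes and 1.40 for the replacement variants, against 1.27 for all gene rows. Among replication-dependent genes the median ratio was 1.06 for H2A, 1.77 for H2B and 2.03 for H3. On the model length H2afz had 1391 FPKM, and H2afv (43.1 FPKM) fell below H2afy (52.8 FPKM). The ratio of the median H2A level to the median H2B level was 15.2 on the effective length and 9.54 on the model length. With the model length, 36 of 66 replication-dependent and 11 of 14 replacement genes had at least 1 FPKM, where 58.2% of all gene rows did.

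The known targets of Brf proteins carry AU-rich elements behind the stop codon, with TATTTAT as a core form. In the GENCODE transcript nearest in length to the model, TATTTAT followed the stop codon in 3 of 13 replacement variants and in 1 of 66 replication-dependent genes, on the transcript strand. Over all coding genes, 27.8% held it in some transcript. The sites of the 3 replacement variants are shown because they are the letters an AU-rich element binder would meet; capitals mark TATTTAT.
H2afv, chr11:6427839-6427845, minus strand: gaaatataTATTTATtaacgtat
H2afj, chr6:136809149-136809155, plus strand: gtgctagtTATTTATggtagtat
H3f3b, chr11:116022661-116022667, minus strand: ggggatttTATTTATaagggctc
The transcripts that carry these sites lie within 10% of the model lengths. Hist1h1d had 4 such sites in a GENCODE transcript much longer than its model. H2afz and H3f3a had none in the transcript searched, which for H3f3a (888 nt) is shorter than the model (1076 nt). A match is a description of these letters, and without groups nothing about binding can be read from it.

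The listed genes for the transcription, processing and decay of replication-dependent histone mRNAs had higher FPKM in this profile than most replication-dependent genes. This need not be their order in the cells. Whether polyadenylated RNA was selected is not stated, and 32 of the 66 histone models hold the coding sequence alone. Of 23 listed genes, 23 reached 1 FPKM (56.0% of all gene rows did) and 22 reached 5 FPKM (38.3% of all gene rows did). Their median was 22.7 FPKM. Slbp, which encodes the stem-loop-binding protein, had 83.4 FPKM (80.7 to 86.1, 3759 counts). Npat and Casp8ap2, which act in the transcription of these genes, had 16.0 and 19.2 FPKM. The Lsm proteins particular to the U7 particle were the lowest of its parts, with Lsm11 at 2.63 FPKM (2.39 to 2.87, 479 counts) and Lsm10 at 6.03 FPKM. The Sm proteins shared with spliceosomal particles led the list, with Snrpg at 477 FPKM, Snrpe at 465 FPKM, Snrpb at 324 FPKM and Snrpd3 at 289 FPKM. Cpsf3, the nuclease that cuts histone pre-mRNA, had 24.2 FPKM. In histone mRNA decay, the exonuclease gene Eri1 had 20.2 FPKM and the helicase gene Upf1 17.4 FPKM.

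All 27 measured histone chaperone and deposition genes, of 31 listed symbols, also had at least 5 FPKM. Their median was 25.2 FPKM. The H2A-H2B chaperone Nap1l1 was highest at 518 FPKM, followed by the H3-H4 chaperone Nasp at 379 FPKM, the acetyltransferase Hat1 at 232 FPKM and the histone-binding Rbbp7 at 210 FPKM. Chaf1a was not measured. For H3.3, Atrx had 43.3 FPKM, Hira 18.5 FPKM and Daxx 17.3 FPKM. Anp32e, a chaperone that removes H2A.Z, had 89.6 FPKM, and Asf1b had 20.6 FPKM. The lowest were Tonsl at 5.07 FPKM, which recognises newly made histones, and Cabin1 at 6.10 FPKM.

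**Figure D5:**
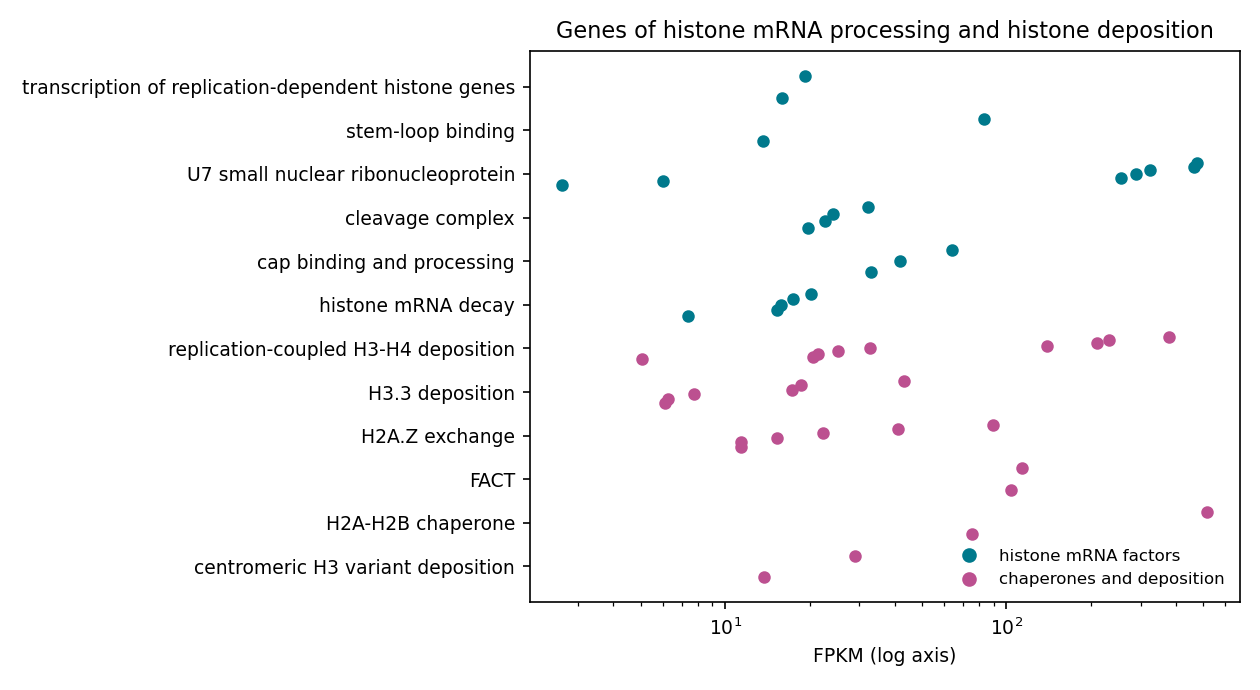
FPKM (log axis) of genes for histone mRNA synthesis, processing and decay (upper 6 rows) and for histone chaperones and deposition (lower 6 rows), grouped by role, each point a gene. Lsm11 is the lowest at 2.63 FPKM and Nap1l1 the highest at 518 FPKM.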

How the data were processed

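Per the submitters' processing notes, eXpress 1.1.1, Bowtie 1.1.2 and CASAVA 1.8.2 were used with build mm9. Their settings are not stated. The authors deposited 1 table with 1 model per symbol: read counts (total and unique), estimated counts and FPKM with bounds, per the file headers. The deposited FPKM equals the count over the effective length and the total count in all 18312 rows, within a relative tolerance of 0.001. The 1 row without a gene holds the total, 22625281, and was left out. Model and effective lengths, in nt, were deposited by the authors too.

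Symbols of all 80 members were found in GENCODE M21 (GRCm38). A coding transcript existed for 79, and for 41 it lay within 10% of the model length. Exons of 32 members, among them all 18 replication-dependent H2A genes, overlap those of another gene. Strand handling is not stated, so such genes cannot be told apart. Coding words of 50 and 36 bases were compared on the same strand. Sequence searches and summaries were tested on simulated data. The members, lists and rules were chosen with earlier results of these data known. Genes named were every replacement variant, the 3 highest per replication-dependent type, those with 0 counts, and the extremes and step-defining genes of both lists. Others were named after their values were seen. Alternatives were the model length, other thresholds and other class memberships. The software was matplotlib 3.10.9, scipy 1.17.1, pandas 2.3.3 and numpy 2.4.6 under Python 3.11.15.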

Additional observations from a re-analysis of the deposited data

How the results depend on the processing

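No paired analysis was possible because no column names a library or a replicate. The planned comparison of library groups, its other test, the leaving out of replicates and the replicate block were therefore not run. Of 38 alternatives for 8 results, 22 stayed within 1.5 times (counts) or within a counting interval (levels). For a median, this interval was the authors' bounds of the middle gene or genes, which is not an interval for the class median. The count of replication-dependent genes, 27, became 11 at 5 FPKM, 44 at 10 counts and, in a choice made after seeing the data, 9 without H2A genes. Their median, 0.750 FPKM, became 1.29 on the model length and 1.28 with at least 10 counts. Without H2A genes, a choice made after seeing the data, the median was 0.463 FPKM, which still lay within those wide bounds. Their sum, 174.6 FPKM, became 205.0 on the model length, 166.4 with at least 10 counts, 261.4 with H2afx added and, in choices made after seeing the data, 116.3 with stem-loop genes only and 32.3 without H2A genes. The median of the replacement variants, 17.7 FPKM, became 25.6 on the model length, 36.7 with at least 10 counts or without germline genes, and 9.20 without H2afx. Their sum, 2001 FPKM, became 2622 on the model length and 1914 without H2afx. The shifts follow from the members or lengths used. In each of these settings the replication-dependent median and sum stayed below those of the replacement variants. Low counts limit single H2B, H3 and H4 genes, and 1 profile gives no spread between samples.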
